A study of Mus musculus with 4 samples.

Results

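Gene expression was compared between a pair of NMuMG lines before any TGFβ was given. NMuMG cells are an established epithelial line derived from the normal mammary gland of mice. In the first line the cells overexpressed a mutated human TRF1, here TRF1ΔN, and in the second the same mutated protein carried the transcription activation domain of Vp16, here Vp16-TRF1ΔN. The series describes the fusion as a means to raise RNA of the TERRA type and asks how this alters the epithelial-to-mesenchymal transition (EMT), which was induced with TGFβ at 5 ng/ml for 24 h in the other 2 of the 4 libraries. The 2 libraries at 0 h, labelled with the agent control, are described here over the 11622 genes, of 21971 in the count table, whose mean across the pair was at least 1 CPM (counts scaled to a common library size). Both lines carry a TRF1ΔN protein, so no library shows NMuMG cells without one, and the labels do not say whether a line was a clone or a pool. Each line had 1 library at each time, so the lines at 0 h could not be tested against each other. A difference is given as a ratio with its exact 95% counting interval, which covers counting error only and not the spread between cultures. What separates the lines may therefore belong to the fusion, to the level of the construct, to the cells in which each line was made or to the culture, and these cannot be told apart.

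TRF1 is a subunit of shelterin, the protein complex that coats the double-stranded TTAGGG repeats at chromosome ends. TERRA is the noncoding RNA transcribed from subtelomeric sequence into those repeats. Vp16, a protein of herpes simplex virus, carries a strong activation domain that recruits the transcription machinery when it is tethered to DNA. NMuMG cells form junctions that rest on E-cadherin, and with TGFβ they lose these junctions and take on mesenchymal features through SMAD proteins and repressors of the Snail and Zeb families.

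The libraries held 45983910 counts in genes (TRF1ΔN) and 41953130 counts (Vp16-TRF1ΔN), with at least 1 count for 20047 and 19849 genes. Construct rows were left out of the comparison and served only to check the labels: the row named VP16 had 0 counts in the TRF1ΔN library and 15 in the Vp16-TRF1ΔN library, and the row named TRF1DN had 1863 and 123. TRF1DN was thus 13.7-fold lower in the Vp16-TRF1ΔN library (11.4 to 16.6), so the lines also differ in the level of construct RNA. The size of that difference varied by row: the vector rows were 11.9-fold (Vec_part1) and 2.42-fold (Vec_part2) lower. Endogenous TRF1, from the mouse gene Terf1, had 903 and 851 counts, a log2 ratio of 0.06 (Vp16-TRF1ΔN over TRF1ΔN, as for all ratios below; interval -0.08 to 0.20). Of the epithelial markers, E-cadherin (Cdh1), keratins 8 and 18, occludin and Tjp1 were abundant in both libraries, with 3360 counts or more each, whereas Epcam had 18 and 4 counts. Of 10 luminal mammary markers 4 reached 1 CPM (Krt19, Cd14, Areg and Foxa1), and Elf5 had 0 counts in both libraries. In all, 5 of 7 epithelial and 4 of 10 luminal markers reached 1 CPM.

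The lines were close to each other for nearly all genes. Among the 7444 genes averaging 20 CPM or more, the central 95% of log2 ratios ran from -0.26 to 0.24, and their SD was 0.14 against 0.04 for the typical counting error of a gene. A ratio was counted when it was at least 2-fold and its interval excluded 1. By this rule 25 genes (0.215% of 11622) were higher in the Vp16-TRF1ΔN library and 37 (0.318%) were lower. At 1.5-fold, 152 genes (1.31%) were higher and 129 (1.11%) lower. Many of the counted genes had low levels: 14 of the 25 and 16 of the 37 had a mean under 2 CPM, where ratios spread widely, and 1 of the 25 and 2 of the 37 reached 20 CPM. The lower side held the larger ratios, up to 21.2-fold for Wfdc2, whereas the largest on the higher side was 2.83-fold, for the small nuclear RNA gene Scarna6 (32 and 82 counts).

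**Figure D1:**
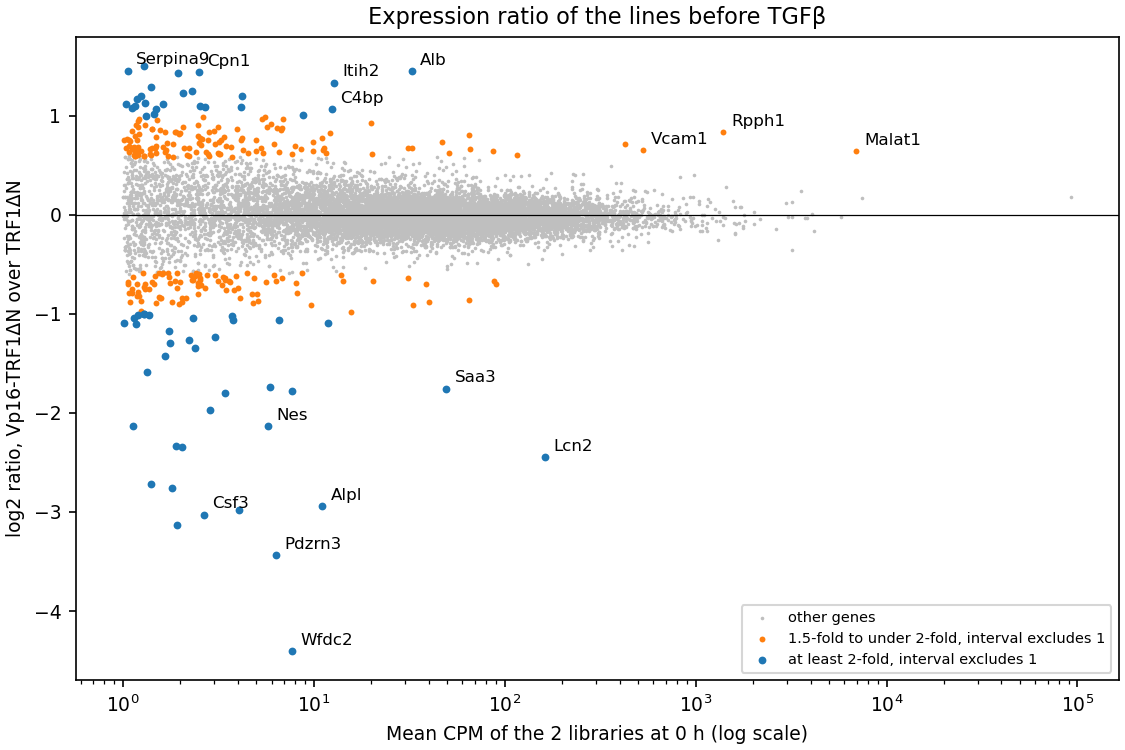
Each point is one of the 11622 genes. The horizontal axis is the mean of the 2 libraries at 0 h (CPM, log scale) and the vertical axis the log2 ratio of Vp16-TRF1ΔN over TRF1ΔN; blue points are counted at 2-fold and orange points at 1.5-fold only. The points narrow around 0 as the level rises, and the lower genes reach a log2 ratio of -4.40 (Wfdc2), much farther from 0 than the higher genes, of which Alb lies at 1.45.

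TRF1 binds TTAGGG repeats, so the RefSeq promoters (GRCm38.p6, 250 bases before to 50 bases after each gene start) of the counted genes were searched for TTAGGG on both strands. Promoters in the table were matched for 15 of the 25 higher and 26 of the 37 lower genes. TTAGGG was present for 2 of the 15 (13.3%) and 3 of the 26 (11.5%), beside 12.4% of the 8953 matched genes among the 11622 and 12.03% of all genes in the table. These shares are near each other. The longer string TAGGGTT, which reads across the junction of adjacent repeats and overlaps TTAGGG, was found for 1 of the 15 and 0 of the 26, beside 2.81% of the matched genes. The motif stretches of 4 of the genes named below, the largest ratios among those with TTAGGG, are shown. Bases beyond the upstream edge of a promoter, near which the Nes motif lies, were not searched. Each stretch shown holds a single TTAGGG and no tandem run of it. Each is written on the gene's strand from 5′ to 3′ with the motif in capitals. They come from chr3:87970843-87970874 (Nes, plus strand), chr2:164356600-164356653 (Slpi, minus strand), chr6:23133175-23133228 (Aass, minus strand) and chr1:130661757-130661810 (C4bp, minus strand).
Nes: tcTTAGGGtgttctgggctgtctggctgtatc
Slpi: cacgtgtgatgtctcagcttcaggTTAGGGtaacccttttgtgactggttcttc
Aass: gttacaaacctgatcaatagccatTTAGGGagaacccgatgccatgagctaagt
C4bp: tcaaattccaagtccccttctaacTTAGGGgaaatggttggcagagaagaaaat
The motif begins 248, 122, 218 and 168 bases before the gene start in these promoters. Nes and Slpi were lower, and Aass and C4bp higher, in the Vp16-TRF1ΔN library. A match is a description of the letters and no evidence of binding.

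Lowest in the Vp16-TRF1ΔN library relative to the TRF1ΔN library was Wfdc2. Wfdc2 (ENSMUSG00000017723, chr2:164562413-164568510 in GRCm38), a small secreted protein with four-disulfide core domains, had 702 counts in the TRF1ΔN library and 30 in the Vp16-TRF1ΔN library. It was 21.2-fold lower (14.7 to 31.6). Pdzrn3, a ubiquitin ligase with PDZ domains, had 550 and 46 counts and was 10.8-fold lower (7.999 to 14.95). Alpl, the tissue-nonspecific alkaline phosphatase, had 935 and 110 counts and was 7.69-fold lower (6.31 to 9.46). Of 8 measured genes of mineralization Alpl alone was counted at 1.5-fold, where 1.31% of all genes were higher and 1.11% lower. This is no result about the list. The phosphate transporter Slc20a1 was next lowest with a log2 ratio of -0.26.

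Genes of the NF-κB and acute phase list split. Of 29 measured members 5 were at least 1.5-fold lower and 1 higher, beside 1.11% and 1.31% of all genes. The median log2 ratio was -0.004 beside -0.01 for all genes. Csf3, the granulocyte colony-stimulating factor, had 225 counts in the TRF1ΔN and 25 in the Vp16-TRF1ΔN library and was 8.14-fold lower (5.37 to 12.9). Lcn2, a lipocalin that binds bacterial siderophores, had 13025 and 2168 counts, or 273 and 50.3 CPM, and was 5.44-fold lower (5.19 to 5.69). It had the most counts among the genes counted at 2-fold. Saa3, a serum amyloid A of the acute phase, had 3633 and 974 counts and was 3.37-fold lower (3.14 to 3.63). Slpi, an inhibitor of leukocyte proteases, had 253 and 66 counts and was 3.47-fold lower (2.64 to 4.62). Ptgs2, the inducible cyclooxygenase, had 2272 and 1268 counts and was 1.62-fold lower (1.51 to 1.74). Vcam1, an adhesion molecule for leukocytes, went the other way with 19602 and 27844 counts, 1.57-fold higher (1.54 to 1.60). The chemokine genes lay between, with log2 ratios of -0.33 for Ccl2 and 0.33 for Ccl20, so the list did not move as a unit.

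Several lower genes had roles outside these lists or in others. Lrrc32 encodes the protein that holds latent TGFβ on the cell surface. It had 341 and 39 counts and was 7.91-fold lower (5.67 to 11.3). Scara3, a scavenger receptor, had 150 and 20 counts and was 6.79-fold lower (4.24 to 11.4). Serpine2, a serpin that inhibits thrombin and urokinase, had 163 and 29 counts and was 5.09-fold lower (3.41 to 7.83), and Adamts9, a proteoglycan-cleaving metalloprotease, had 150 and 27 and was 5.03-fold lower (3.32 to 7.88). All 4 were at low levels, with 39 counts or fewer each in the Vp16-TRF1ΔN library. Timp3, a matrix-bound inhibitor of metalloproteases, had 432 and 117 counts and was 3.34-fold lower (2.72 to 4.13). Eda2r, a receptor of the tumour necrosis factor family that is also a known p53 target, had 565 and 149 counts and was 3.43-fold lower (2.86 to 4.14). Eda2r was the only 1 of 31 measured p53 targets counted at 1.5-fold, near the share of all genes (1.31% higher, 1.11% lower). The list's median was -0.04.

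Transporters and a detoxification enzyme were also among the 20 largest lower ratios. Gstt1, a glutathione transferase, had 165 and 17 counts, a log2 ratio of -3.13 (-3.95 to -2.41). The choline transporter-like gene Slc44a3 had 116 and 16 counts (-2.71), and the nucleoside transporter gene Slc28a3 had 87 and 18 (-2.13). Rasal1, an activator of the GTPase activity of Ras, had 96 and 29 counts (-1.58). These 4 genes had between 16 and 29 counts in the Vp16-TRF1ΔN library, so their ratios are known only roughly. Beyond the 20, aggrecan (Acan) had 119 and 44 counts (-1.29), the transcription factor gene Trps1 149 and 56 (-1.27), and the neutrophil-type calcium binder S100a8 76 and 32 (-1.10), all picked after their values were seen. At 20 CPM or more, filamin C (Flnc), an actin crosslinker, had 1800 and 1050 counts (-0.63).

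Intermediate filament genes differed by type. Nes, the filament protein nestin, had 445 and 92 counts and was 4.38-fold lower (3.49 to 5.54). Krt7, a keratin of simple epithelia, had 116 and 39 counts and was 2.69-fold lower (1.86 to 3.97), and Krt6a, a keratin of stressed and stratified epithelium, had 2480 and 1220 and was 1.84-fold lower (1.72 to 1.97). The abundant simple-epithelial keratins were near equality: Krt8 had 80115 and 67825 counts (log2 ratio -0.10), Krt18 132005 and 107999 (-0.15) and Krt19 74570 and 71026 (0.07). Of the 14 measured members of the keratin and filament list, 4 were at least 1.5-fold lower and 0 higher. Over all genes 1.11% were lower and 1.31% higher. The list's median was -0.16. Krt78, a type II keratin outside that list, had 73 and 32 counts (-1.05).

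The higher side was led by genes that are best known from liver. Alb (ENSMUSG00000029368, chr5:90460897-90476602), which encodes serum albumin, had 833 counts in the TRF1ΔN library and 2057 in the Vp16-TRF1ΔN library, or 17.5 and 47.7 CPM, and was 2.73-fold higher (2.52 to 2.96). Itih2, a heavy chain that stabilizes hyaluronan, had 346 and 789 counts and was 2.52-fold higher (2.22 to 2.87). Transthyretin (Ttr) had 77 and 149 counts, 2.14-fold higher (1.61 to 2.85), and coagulation factor F5 had 39 and 86, 2.44-fold higher (1.65 to 3.66). Of 17 measured liver-type plasma proteins 6 were at least 2-fold higher, beside 0.215% of all genes. This list, like the others, was chosen with earlier results of these data known. Its 1 member lower at 1.5-fold, beside 1.11% of all genes, was the antitrypsin gene Serpina1b (160 and 87 counts). Serpina1b belongs to a family of near-identical copies whose reads the counting could split. The list's median was 0.35, while the abundant members Apob and Rbp4 lay at 0.00. Hepatocytes' own defining genes did not all follow: Hnf4a, the nuclear receptor of liver and gut, had 21233 and 21023 counts (0.13), and Apoa1 had 33 and 29 counts. Of 12 measured hepatocyte transcription factors 0 were counted at 1.5-fold, near the share of all genes (1.31% higher, 1.11% lower). The highest were Cebpa at 0.51 (2097 and 2707 counts) and Foxa1 at 0.47 (280 and 352).

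Complement genes leaned the same way. This group was put together after its values had been seen, so its count describes the choice as well as the cells. All 16 measured members lay above 0, beside 5568 of all 11622 genes, with a median log2 ratio of 0.47. Of these members 7 were at least 1.5-fold higher, beside 1.31% of all genes. C1s1, a protease of the first complement component, had 2259 and 3584 counts and was 1.75-fold higher (1.66 to 1.85). C4bp, which binds and helps to inactivate C4b, had 383 and 727 counts and was 2.10-fold higher (1.85 to 2.38). Cpn1, a carboxypeptidase that inactivates complement anaphylatoxins, had 64 and 157 counts and was 2.71-fold higher (2.02 to 3.69). C3, the central component, had 9606 and 11495 counts and a smaller log2 ratio of 0.40. Activators and inhibitors of the cascade were thus both on the higher side.

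The remaining higher genes had varied roles and mostly low counts. Serpina9, a serpin of the antitrypsin cluster, had 27 and 67 counts (log2 ratio 1.46, interval 0.79 to 2.16). Mycn, a transcription factor of the Myc family, had 50 and 122 counts (1.43, 0.95 to 1.94). Gbp2b, a guanylate-binding protein induced by interferon, had 65 and 140 and was 2.38-fold higher (1.76 to 3.25). The interferon list does not hold Gbp2b, and 0 of its 19 measured genes were counted at 1.5-fold. This is near the share of all genes (1.31% higher, 1.11% lower) and is no result about the list. The gel-forming mucin gene Muc5b had 122 and 253 counts (1.20, 0.88 to 1.52). Srd5a2, a steroid reductase, had 36 and 75 counts (1.20), Aass, a lysine-degrading enzyme, 35 and 68 (1.10), and Adra1b, an adrenergic receptor, 34 and 65 (1.08). The other 5 of the 20 largest ratios belonged to Drc1, Zfp608, Pamr1, Cntln and Arhgap32, with 35 to 126 counts in the TRF1ΔN library, 71 to 243 in the Vp16-TRF1ΔN library and log2 ratios from 1.09 to 1.23. At 20 CPM or more, small RNAs aside, the largest ratios after Alb and C1s1 were 0.73 for Sptssb, a subunit of serine palmitoyltransferase (1669 and 2510 counts), 0.72 for the noncoding RNA Neat1, 0.68 for the aldo-keto reductase Akr1c14 (1137 and 1646) and 0.67 for the cytochrome Cyp4b1 (1196 and 1725). Gc, the vitamin D-binding protein of plasma, had 3222 and 4549 counts (0.64).

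**Figure D2:**
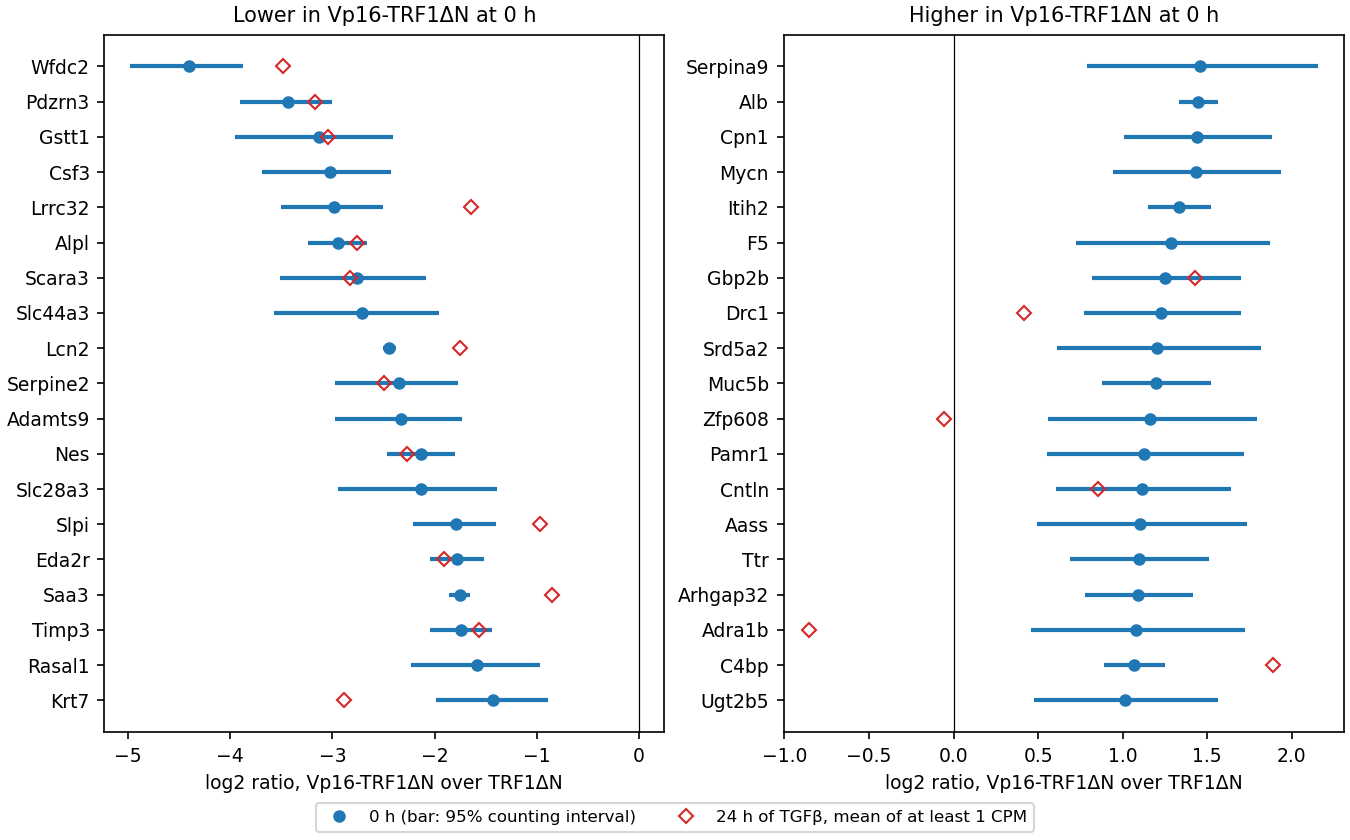
Log2 ratios of Vp16-TRF1ΔN over TRF1ΔN for genes among the 20 largest counted ratios in each direction at 0 h, small RNAs and predicted genes left out. Blue points and bars are the ratio and its 95% counting interval at 0 h, and open red diamonds the ratio at 24 h of TGFβ where the mean there was at least 1 CPM. Most lower genes have a diamond on the same side of 0, and most higher genes have none.

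The main genes of the epithelial and mesenchymal states had ratios near 1 before TGFβ. Cdh1 had 17416 counts in the TRF1ΔN library and 15872 in the Vp16-TRF1ΔN library, a log2 ratio of 0.01 (-0.02 to 0.04). N-cadherin (Cdh2) had 3755 and 3328 counts (-0.03) and vimentin (Vim), already abundant, 152909 and 136054 (-0.02). Zeb1 had 1790 and 1680 counts (0.05) and Zeb2 1358 and 1217 (-0.01). Snai1 and Twist1 were too low to read, with 28 and 30 counts and 2 and 2 counts, and Snai2 had 56 and 59 (0.22, -0.33 to 0.77). At 1.5-fold 0 of 23 measured EMT transcription factors and 1 of 26 epithelial and junction genes (Krt7) were counted, which is near the share of all genes (1.31% higher, 1.11% lower).

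Some matrix genes differed more. Of 24 measured members of the mesenchymal and matrix list 5 were at least 1.5-fold lower and 0 higher, beside 1.11% and 1.31% of all genes. The list's median was -0.05, with 8 members above 0. The 5 lower genes held Timp3 and Nes, a filament gene also counted in the keratin and filament list. The other lower genes were of collagens: Col5a1 had 424 and 184 counts (log2 ratio -1.06), Col6a2 3974 and 1981 (-0.86) and Col7a1 103 and 58 (-0.68). Fibronectin (Fn1), a hallmark of EMT, had 5055 and 3366 counts, 1.36-fold lower (1.30 to 1.42), which is below the fold used for counting. Mmp13, a collagenase, was highest in the list at 0.44 (792 and 973 counts).

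TGFβ and its receptors had ratios near 1 at this time point. Tgfb1 had 1471 and 1277 counts (log2 ratio -0.06), the type I receptor gene Tgfbr1 10991 and 11155 (0.17) and the type II receptor gene Tgfbr2 7759 and 7096 (0.02). Among 22 measured ligands, receptors and latency proteins, Lrrc32 and the activin subunit gene Inhbb (313 and 155 counts, -0.87) were lower and Tgfb3 was higher (184 and 260 counts, 0.64). These were counted at 1.5-fold, where 1.11% of all genes were lower and 1.31% higher. Of 29 measured targets of TGFβ and SMADs 1 was counted, Tgfbi (66 and 28 counts, -1.09), again near the share of all genes (1.11% lower). The inhibitory SMAD gene Smad7 stood at 0.03 (2087 and 1928 counts) and Id1, a target of bone morphogenetic proteins, at -0.06.

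Among shelterin and telomere genes 0 of 36 measured, and among Polycomb genes 0 of 30, were counted at 1.5-fold, with medians of -0.02 and -0.03. With 1.31% of all genes higher and 1.11% lower at that fold, so few are near the background and are no result about these lists. Terf2, which encodes the other double-stranded repeat binder of shelterin, had 1080 and 941 counts (-0.05, interval -0.18 to 0.07). The lowest telomere genes were Pinx1, an inhibitor of telomerase (805 and 578 counts, -0.33), and Blm, a helicase (2058 and 1491, -0.32), and the highest was Atrx, a chromatin remodeller that acts at telomeres (12551 and 12768, 0.17). RNA of the repeats themselves was not analysed here.

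Several large gene groups showed small shifts shared by most or nearly all members. Of all 11622 genes, 6054 lay below 0 and 5568 above 0. The 56 measured replication-dependent histone genes had a median log2 ratio of -0.28, with 55 below 0. The 26 sterol synthesis genes had a median of -0.19, with 25 below 0. Hsd17b7, an enzyme of the pathway, lay at -0.36 (1053 and 743 counts), and the regulator Srebf1 was highest at 0.00 (7104 and 6445 counts). The 45 proliferation genes had a median of -0.15, with 41 below 0, led by Mybl2, a cell cycle transcription factor (1445 and 970 counts, -0.43), while Mki67 (39363 and 35840) lay at 0.01. Glycolysis and hypoxia genes had a median of -0.12, with 22 of 27 below 0. Going the other way, all 7 measured mitochondrially encoded protein genes lay between 0.14 and 0.21. No member of the histone, sterol, proliferation or mitochondrial lists reached 1.5-fold, and 1 glycolysis gene, Pfkfb4, did (198 and 115 counts, -0.64). At that fold 1.31% of all genes were higher and 1.11% lower.

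The composition of the libraries also differed. Mitochondrial transcripts took 10.2% of the TRF1ΔN library and 11.4% of the Vp16-TRF1ΔN library. Most of this was the mitochondrial ribosomal RNA mt-Rnr2, at 9.03% and 10.1%, in libraries made from ribosomal RNA-depleted RNA. The median log2 ratio was 0.01 over the 2902 genes with the lowest GC content and -0.04 over the 2902 with the highest. With ratios centred on genes of like GC content and length, a setting chosen after seeing the data, the medians were -0.25 for histones, -0.20 for sterol synthesis, -0.16 for proliferation and 0.14 for mitochondrial genes. The part of GC content, of length or of the mitochondrial share in these medians was not tested.

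**Figure D3:**
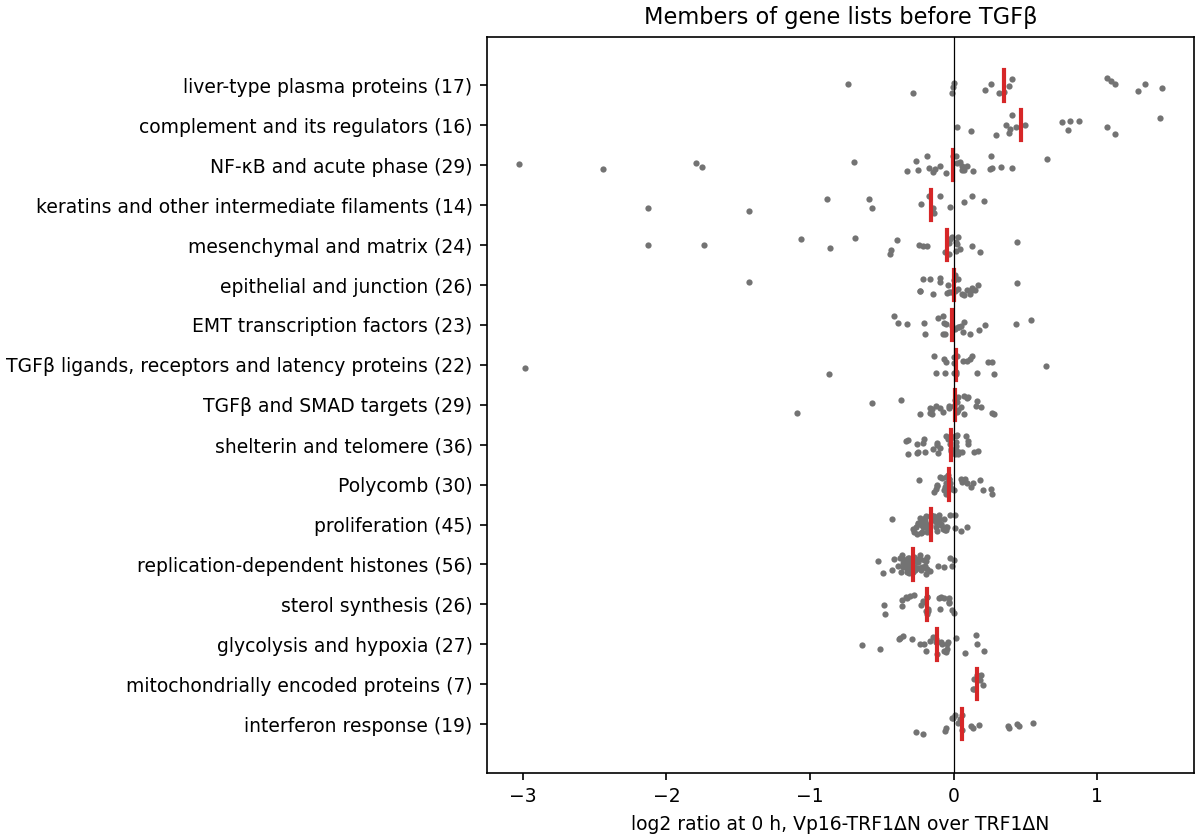
Each grey point is a list member with a mean of at least 1 CPM, placed by its log2 ratio of Vp16-TRF1ΔN over TRF1ΔN at 0 h, and each red bar is the list's median. Numbers in brackets are measured members. Liver-type and complement genes lie to the right of 0 and histone, sterol and proliferation genes just to its left, as do keratins and other filaments. The NF-κB and matrix lists are centred near 0, and these and the keratin list have a few members far to the left.

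At 1.5-fold, the 152 higher genes held 12 small RNAs and 24 other noncoding genes, and the 129 lower genes held 0 small RNAs and 8 other noncoding genes. Among all 11622 genes, 56 were small RNAs and 420 other noncoding genes. This difference has no test. Rpph1, the RNA subunit of ribonuclease P, had 47749 and 77049 counts (log2 ratio 0.83). Malat1, an abundant nuclear RNA, had 257339 and 362690 counts (0.64), and its neighbour Neat1, the scaffold of paraspeckles, 15429 and 22975 (0.72). The Y RNA Rny3 had 655 and 1127 counts (0.93), whereas Rny1 had 377 and 334 (-0.03). Many of these RNAs are short, lack a poly(A) tail and have pseudogene copies, so their counts can depend on RNA isolation and on how shared reads were assigned, and the part of either was not tested. The ratio did not hold at 24 h for Neat1 (-0.31) and Rny3 (-0.71), and it did for Rpph1 (0.79).

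By position, medians of the autosomes and X differed little. Chromosome Y, with 1 gene averaging 5 CPM or more, and the mitochondrial genome were left out. Medians over genes averaging 5 CPM or more ran from -0.06 on chromosome 15 and -0.04 on chromosome 4 to 0.02 on chromosome 9. At 24 h, in the other pair of libraries, chromosomes 15 and 4 were again the lowest of these, at -0.08 and -0.06. The 127 genes within 1 Mb of the distal end of their chromosome had a median of 0.04, and 0 of them were counted at 2-fold. Within 5 Mb the median of 653 genes was -0.01, equal to the -0.01 of the 10942 genes farther away, with 2 genes higher and 2 lower at 2-fold. Over all genes 0.215% were higher and 0.318% lower at that fold, so these counts are near the background.

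**Figure D4:**
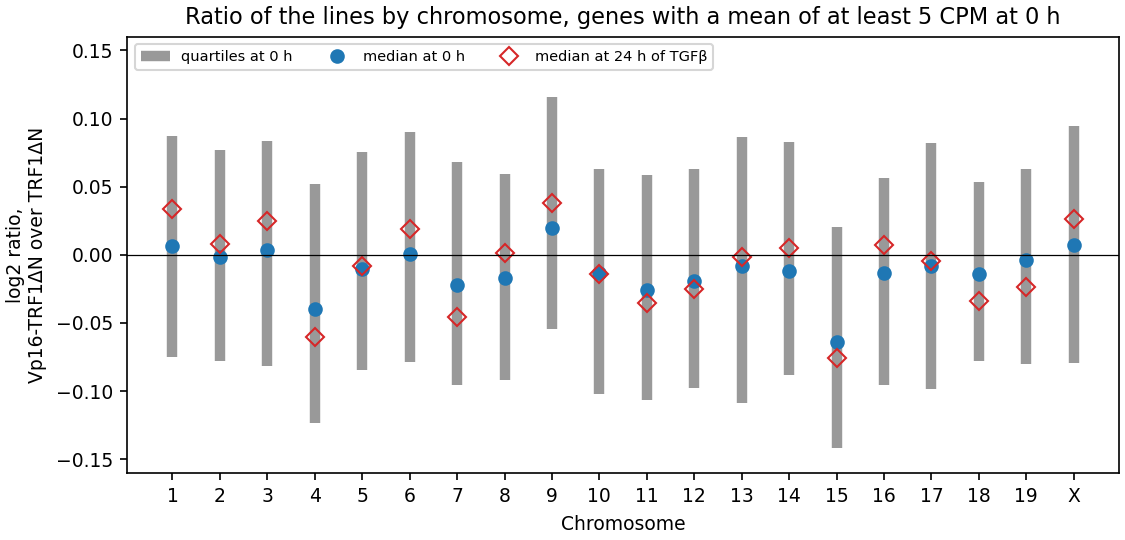
Median log2 ratio of Vp16-TRF1ΔN over TRF1ΔN per chromosome for genes averaging 5 CPM or more at 0 h. Blue points and grey bars give the median and quartiles at 0 h, and open red diamonds the median of the same genes at 24 h of TGFβ. Chromosome Y, with 1 such gene, and the mitochondrial genome are not shown. The medians drawn for 0 h lie between -0.06 and 0.02, with chromosomes 15 and 4 lowest.

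Some counted genes were neighbours. With gaps of at most 250 kb, 13 of the 152 higher genes lay in 6 runs and 19 of the 129 lower genes in 9 runs. How often other genes lie this close was not worked out, so these counts are no result about neighbours. A run can also span measured genes that were not counted. In the albumin family on chromosome 5, Alb (1.45) and Afm (177 and 317 counts, 0.99) were higher while Afp (389 and 349 counts), which lies between them, was at -0.01. The glucuronosyltransferase genes Ugt2b35, Ugt2b36 and Ugt2b5 formed a run with log2 ratios of 0.97, 0.66 and 1.01. On chromosome 2, Slpi (-1.79) and Wfdc2 (-4.40), both of the four-disulfide core family, were lower, and the 4 measured genes between them ranged from -0.12 to 0.17. Prl2c3, Prl2c2 and Prl2c5, prolactin-family genes on chromosome 13, lay at -0.91, -0.67 and -0.79, but they are near-identical copies and the counting could split their reads. Tmem173 and Ecscr on chromosome 18 are also adjacent (-1.35 and -1.24). Both lie on the minus strand, so transcripts that run from one into the other could not be told apart by strand.

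The same genes were then read in the separate pair of libraries taken at 24 h of TGFβ. Of the 37 genes counted lower at 0 h, 18 were counted lower again by the same 2-fold rule, 0 were counted higher, and 32 had a ratio below 1. For 27 of these 32 the interval at 24 h excluded 1. Of the 25 counted higher, 2 were counted again, 0 were counted lower and 18 had a ratio above 1. For 8 of these 18 the interval excluded 1, and the others could not be told from equality. The 2 counted again were Gbp2b (109 and 239 counts at 24 h, log2 ratio 1.43) and C4bp (76 and 229 counts, 1.89). The median log2 ratio of all 11622 genes at 24 h was -0.002. The share of all genes counted at 24 h was not worked out, so these counts have no background beside them. Levels at 24 h differed between the sides: 16 of the 25 higher genes and 10 of the 37 lower genes had a mean under 1 CPM at 24 h. Whether the sides differ in how often a gene was counted again was not tested.

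Among the lower genes that held, Pdzrn3 had 243 and 22 counts at 24 h (log2 ratio -3.17), Alpl 964 and 116 (-2.76), Wfdc2 137 and 10 (-3.48) and Nes 1960 and 331 (-2.27). Timp3 stood much higher in both lines at 24 h, at 10457 and 2882 counts, with a ratio of -1.56 beside -1.74 before. Lrrc32 likewise stood at 2799 and 731 counts, with a smaller difference of -1.64 beside -2.98. Lcn2 (-1.75) and Saa3 (-0.85) were still lower, whereas Csf3 had 5 and 4 counts and could not be compared. The higher genes of the liver type had few counts at 24 h: Alb had 3 and 16 counts and Itih2 8 and 34. C1s1, with 133 and 438 counts at 24 h, had a log2 ratio of 2.02 beside 0.81 before. Vcam1 had 4343 and 11494 counts, a ratio of 1.70 beside 0.65.

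Markers of other cell types were examined for an admixture that differed between the lines. Of 7 immune, 6 endothelial, 7 fibroblast and 5 adipocyte markers, those with a mean of at least 1 CPM were Cd68, Egfl7, Flt1, Gsn and Pparg, with log2 ratios from -0.03 to 0.14. The defining markers Ptprc, Pecam1, Dcn and Adipoq had between 1 and 7 counts in each library. Basal mammary markers were 2 of 9 at 1 CPM or more, Krt6a (-0.88) and Krt14 (133 and 81 counts, -0.57), while Trp63 had 6 and 6 counts and Acta2 1 and 1. Summed over all basal markers in the count table the level was 55.5 CPM in the TRF1ΔN and 30.8 CPM in the Vp16-TRF1ΔN library. Most of this was Krt6a, with a mean of 40.2 CPM across the pair, so the sum mainly restates that gene. Over all hepatocyte markers in the count table it was 466 and 541 CPM, most of it Hnf4a. In bulk RNA, fewer cells with a gene on and less RNA of that gene per cell cannot be told apart.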

How the data were processed

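Ribosomal RNA-depleted RNA was sequenced. Per the submitters' processing notes, FastQC, STAR, HTSeq and DESeq2 were used with mm10. Neither versions nor annotation release and strand use are given in these sources. Raw counts are as the authors deposited them, and the deposited log2 values (log2 of the count over a DESeq2 size factor, plus 1) served as an alternative. Counts were scaled with edgeR 4.0.16 (TMM over 4 libraries, construct rows left out), giving CPM. Ratios used no prior count. Intervals are Clopper-Pearson at 95%, conditional on the sum, checked on simulated data. A count of 0 was set to 3 counts (0.0630 and 0.0696 CPM). Symbols and coordinates (21889 genes) came from GENCODE for GRCm38. Genes named are the 20 largest counted ratios in each direction, the 10 largest at 20 CPM or more, a set of EMT, TGFβ, keratin and telomere genes, and up to 2 members at each end of a list, at 5 CPM or more. Predicted genes, pseudogenes, small RNAs and mitochondrial genes were left out of ranked picks, and some others were chosen after their values were seen. A few genes picked this way are not reported here. Members and lists were chosen with earlier results of these data known. Alternatives were other scalings, filters on CPM, a prior count of 2, leaving out mitochondrial genes, the mean CPM of 4 libraries, and GC and length centring, the last pair chosen after seeing the data.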

Additional observations from a re-analysis of the deposited data

Results flagged for a closer look

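For 7 genes the lines differed by at least 1.5-fold in opposite directions before TGFβ and at 24 h, each with a counting interval that excluded 1. They were 3 of the 152 genes counted higher and 4 of the 129 counted lower at 0 h. More genes were counted the same way at 24 h: 39 of the 152 and 51 of the 129. With 1 library per group, the difference between the time points was not tested. Inhbb, an activin subunit gene, had 313 counts in the TRF1ΔN and 155 in the Vp16-TRF1ΔN library at 0 h (log2 ratio -0.87) and 141 and 200 at 24 h (0.80). Tnfaip2, a gene induced by tumour necrosis factor, had 5319 and 2959 counts (-0.70) and then 647 and 915 (0.80). Mcpt1, a mast cell protease gene, had 1196 and 683 counts (-0.66) and then 178 and 222 (0.62). The Wnt-enhancing factor gene Rspo3 had 193 and 113 counts (-0.63) and then 203 and 266 (0.69). In the other direction, Mroh3 had 36 and 55 counts at 0 h (0.76) and 155 and 57 at 24 h (-1.15). The Y RNA Rny3 went from 655 and 1127 counts (0.93) to 1281 and 636 (-0.71). Adra1b had 34 and 65 counts (1.08) and then 222 and 100 (-0.85).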

How the results depend on the processing

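The counts depended on the filter on level. Without a filter, 174 genes were higher and 206 lower at 2-fold, and 349 and 336 at 1.5-fold. With a mean of at least 5 CPM, 4 and 10 remained at 2-fold and 40 and 31 at 1.5-fold. The other settings, scalings and a prior count of 2 among them, kept the counts within 1.5 times. Leaving out mitochondrial genes before scaling gave 27 higher and 47 lower at 2-fold and 145 and 159 at 1.5-fold. Taking the mean CPM over 4 libraries, an alternative chosen after seeing the data, gave 24 and 52, and 142 and 150. Both turned the split at 1.5-fold towards lower genes. Other scalings move every ratio by the same amount, at most 0.012 on the log2 scale, or 0.023 without mitochondrial genes. No counted ratio could change sign by so little, so rescaling is no test of the 78 named genes or 33 list medians. GC and length centring moves genes by different amounts. Under it all 33 medians moved by less than the reach of a typical member's counting interval, a wide yardstick for a median. Among the 78 genes the largest shift was 0.40 with a prior count of 2, and 0.24 with the deposited log2 values. No counted ratio changed sign, but adding to the counts mainly draws ratios towards 0. No paired analysis was possible because each line has 1 library at 0 h, so neither could be left out. A fit of the line with time as a term, which averages 0 h and 24 h, was not run. Depth limits the genes under 2 CPM, where counting error alone has an SD of 0.26 on the log2 scale.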
